A study of Mus musculus with 28 samples.

Results

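RNA carried by polysomes of the whole adult mouse testis was compared with total RNA of the purified germ cells that precede elongated sperm. A polysome is a messenger RNA with several ribosomes on it, so polysome RNA is taken as RNA under translation. The comparison used 10 of the 28 arrays of the series, chosen by their titles: 3 arrays of wild-type testicular polysome RNA, 4 of wild-type spermatocytes and 3 of wild-type round spermatids. Of 18193 genes with a probe set on the array, 9097 were tested, those with a mean log2 signal over these 10 arrays at or above the median of all genes. Each difference is the mean log2 level on the polysome arrays minus the average of the spermatocyte and the round spermatid group means, with equal weights. A positive value therefore means a higher level in polysome RNA.

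All animals were adult male C57BL/6 mice. The series studies GRTH, an RNA helicase of the testis encoded by Ddx25, and sets wild-type mice against GRTH null mice. Polysomes were collected from testis by sucrose gradient, and cells were purified by centrifugal elutriation. The same 3 kinds of sample from the null mice (3 polysome, 4 spermatocyte and 3 round spermatid arrays) were used below as a second reading of the comparison, and the 2 wild-type arrays labelled Leydig cells as a further total RNA sample. That sample carried germ cell RNA: the summed signal of 19 elongating spermatid markers was 258498 to 261390 on its arrays, against 165133 to 203382 in spermatocytes, and the tail sheath gene Akap4 had 15242 and 15415 there. Arrays of antibody pulldowns were not used in any test.

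Male germ cells transcribe many genes long before the protein is made. Spermatids pack their DNA with protamines late in development, when transcription has stopped, and store the messenger RNAs they need in particles that keep ribosomes away. Meiotic and round spermatid cells also transcribe many long non-coding RNAs. The whole testis further holds cells that elutriated germ cell fractions are meant to lack: Sertoli cells, which nurse the germ cells, Leydig cells, which make testosterone, peritubular myoid cells, macrophages, spermatogonia and elongating spermatids. A polysome preparation from whole testis therefore differs from germ cell RNA in its cell mixture as well as in its ribosome loading, and these cannot be told apart in this design. In such bulk samples, fewer cells of a type and less RNA per cell cannot be told apart either.

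The labels of the polysome arrays were not all in accord. Wild-type polysome arrays 1 and 2 are titled and sourced as total polysome RNA, while their free-text descriptions name an IgG pulldown. Knockout polysome array 1 is described as coming from a wild-type mouse, against its title. Wild-type arrays 1 and 2 were also deposited at another scale, with trimmed mean signals of 168 and 54.5 against the 500 to which all arrays were brought here. The ratio of 3' to 5' actin probe sets, which rises when RNA is shortened or amplified, was 1.64 to 1.82 on the 3 polysome arrays, 1.41 to 1.64 on the 7 germ cell arrays and 3.81 to 12.8 on the 4 pulldown arrays. The polysome arrays varied more among themselves than the germ cell arrays did. The SD of the log2 difference between arrays of a pair over tested genes was 0.47 to 0.71 for polysome pairs, against 0.12 for spermatocyte arrays 1 and 2, 0.12 for 3 and 4, and 0.16 for round spermatid arrays 1 and 2. These 3 close pairs may hold repeat arrays of 1 sample. Averaging them left 4925 genes called in place of the 6140 given below, and 4401 against spermatocytes in place of 5982. Below both germ cell groups it left 905 in place of 1417. Nothing in the labels ties replicates to different animals, so p-values measure only the spread between these samples. The main fit takes the same spread for all 10 arrays. Yet the SD of an array's deviations from its group mean was 0.10 to 0.17 on germ cell arrays and 0.23 to 0.38 on polysome arrays. The main p-values lean on the closer germ cell arrays and are likely too small. The spermatocyte arrays also held signal of elongating spermatid markers. The summed signal of 19 such markers was 165133 to 203382 on them and 461121 to 627282 on round spermatid arrays. Whether it came from spermatids in the fraction or from spermatocytes was not tested.

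Polysome RNA differed from germ cell RNA at most genes. By limma with Benjamini-Hochberg adjustment over the 9097 genes, 3264 genes (35.9%) were higher and 2876 (31.6%) lower in polysome RNA at an adjusted p under 0.05. On this scale the rises were the larger changes. Of the 6140 called (67.5%), 1392 genes rose at least 2-fold and 111 at least 8-fold, while 867 fell at least 2-fold and 1 at least 8-fold. These sizes shift with the scaling, as the counts do below. The filter also passes genes dim in germ cells when their polysome signal is high. Beyond both germ cell groups, each tested on its own, 1509 genes (16.6%) lay above and 1417 (15.6%) below, so that the sign does not rest on how the germ cell types are weighted. A further 838 genes lay above spermatocytes and below round spermatids, and 882 lay below spermatocytes and above round spermatids. Against spermatocytes alone 5982 genes (65.8%) passed, 2851 (31.3%) higher and 3131 (34.4%) lower. Against round spermatids alone 6927 (76.1%) passed, 3811 (41.9%) higher and 3116 (34.3%) lower.

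The split depended on the scaling. The median log2 signal was 8.07 to 8.17 on the polysome arrays and 7.34 to 7.49 on the germ cell arrays, so centring each array on its median moved the median difference of all genes by -0.70, and quantile normalization moved it by -0.16. Centring gave 1287 higher (14.1%) and 5812 lower (63.9%) genes, and quantile normalization 2696 (29.6%) and 3455 (38%). Weights set by the spread of each kind of sample, polysome or germ cell, are called array weights below. They left the differences as they were and changed only their standard errors. With them 2415 genes (26.5%) were higher and 2049 (22.5%) lower. A list's counts under centring, quantile normalization or array weights are to be read against these shares of all genes. Under all 3 scalings 1271 genes were higher and 2501 lower. Differences below are given on the first scale, where the median over all tested genes was 0.062, and a list's median is also given relative to it. Without polysome arrays 1 and 2, 3352 genes were higher and 2915 lower. That fit holds 1 polysome array, whose spread is assumed to equal that of the germ cell arrays although the polysome arrays differed more, so its counts describe that array and test no stability.

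**Figure D1:**
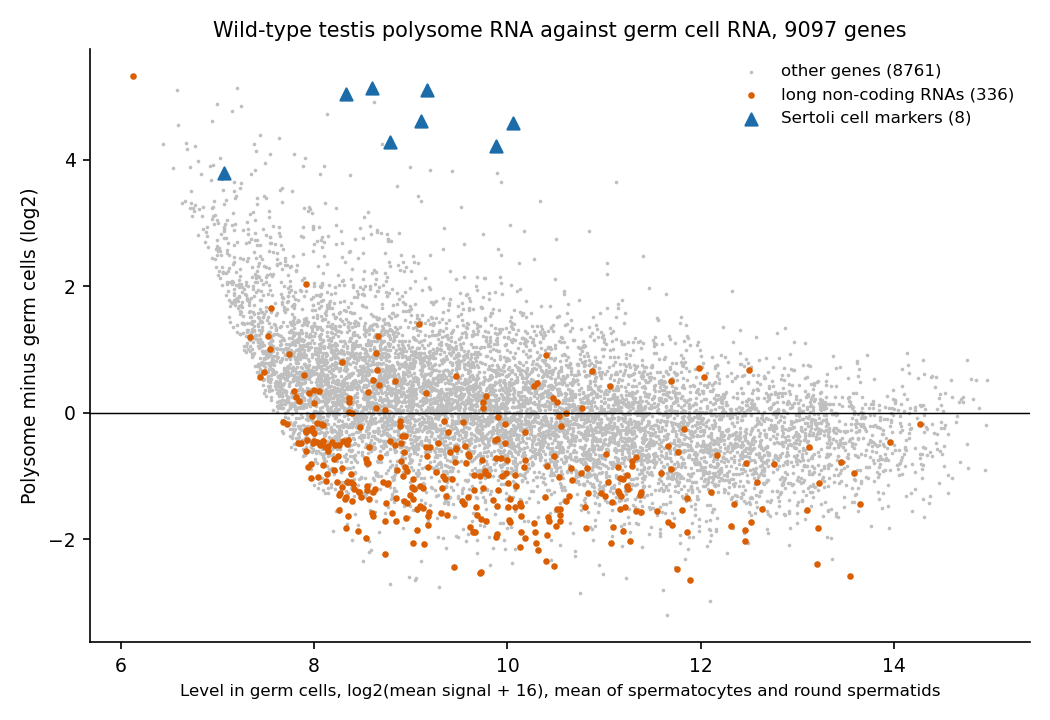
Each point is 1 of 9097 tested genes; the horizontal axis is its level in germ cells, the average of log2(mean signal + 16) in spermatocytes and in round spermatids, and the vertical axis the log2 difference between polysome and germ cell RNA. The 8 Sertoli markers (triangles) lie far above 0 and most of the 336 long non-coding RNAs (orange) below it; the slanted lower left edge is the filter on mean signal.

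Sertoli cell genes rose. Of 18 Sertoli markers, 17 were on the array and 8 passed the filter. All 8 were higher and beyond both germ cell groups (background 16.6%), but the filter kept those whose polysome signal was high, so that count is a description. Without the filter 17 of 17 were higher, against 32.9% of all genes, and in 16 of 17 the 3 polysome arrays lay above all 7 germ cell arrays, against 19.5% of all genes. The summed Sertoli signal was 88519 to 154770 on the polysome arrays, 3527 to 3872 in spermatocytes, 6281 to 6597 in round spermatids and 20768 to 20948 in the Leydig cell arrays.

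Cst9, a testis cystatin, had signals of 12975, 18211 and 10615 on polysome arrays 1 to 3. It had 182, 206, 174 and 179 in spermatocytes and 688, 755 and 759 in round spermatids. The groups did not overlap, and the log2 difference was 5.13 ± 0.15 (SE; limma adjusted p = 1.99e-09). Amhr2, the receptor for anti-Müllerian hormone, gave 24713, 22638 and 13801 on the polysome arrays. Its spermatocyte signals were 421, 456, 434 and 483 and its round spermatid signals 644, 687 and 751. Every polysome value was above every germ cell value, with a difference of 5.11 ± 0.16 (SE; adjusted p = 3.66e-09), a 34.5-fold rise. Clu, which encodes the secreted chaperone clusterin, rose by 4.59 (adjusted p = 8.8e-09), Cst12 by 5.04 (adjusted p = 4.18e-09), Defb19 by 4.62 (adjusted p = 1.99e-09) and the protease gene Ctsl by 4.22 (adjusted p = 1.67e-08).

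Leydig cell genes were higher too, with an uneven germ cell background. Of 12 Leydig markers 9 were on the array, 8 were tested and 8 were higher, against 35.9% of all genes. The filter counts polysome signal, which helps such genes pass. Without it 9 of 9 were higher, against 32.9% of all genes. In 6 of 9 the polysome arrays lay above all germ cell arrays, against 19.5% of all genes. Cyp17a1, an enzyme of androgen synthesis, had 7338, 21924 and 11255 on the polysome arrays. In spermatocytes it had 2490.1, 2554, 3011 and 3001, and in round spermatids 299, 319.6 and 371. All 3 groups were apart, with spermatocytes in the middle, so the rise was 2.14 against spermatocytes and 5.15 against round spermatids. Fabp3, a fatty acid carrier, followed the same order: 9927, 12734 and 7266 on polysome arrays, 1999.8, 1971, 1994 and 1992 in spermatocytes and 191, 203 and 264 in round spermatids. Its values in the Leydig cell arrays were 9166 and 9186. Hsd17b3, which makes testosterone, rose by 2.64 (adjusted p = 1.39e-07) and the adhesion gene Vcam1 by 3.31 (adjusted p = 2.54e-08). The summed Leydig signal was 26411 to 48067 in polysome RNA, 8062 to 8750 in spermatocytes, 4061 to 4320 in round spermatids and 36270 to 36433 in the Leydig cell arrays. Of 22 steroidogenesis genes, which share members with the Leydig list, 9 were tested, 8 were higher and 0 lower; centring left 5 higher and 1 lower.

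Other somatic markers were less uniform. Among 10 peritubular myoid markers 4 were tested, with 3 higher and 1 lower, against 35.9% and 31.6% of all genes tested. Myl9, a myosin light chain of smooth muscle, had 3809, 4438 and 2034 on polysome arrays, 21.1, 46.7, 42.0 and 43.6 in spermatocytes and 145, 166 and 150.2 in round spermatids, a difference of 5.10 (adjusted p = 2.82e-08) with no overlap. Acta2, smooth muscle actin, rose by 2.93 (adjusted p = 3.09e-06) and Dcn, the matrix proteoglycan decorin, by 2.82 (adjusted p = 6.78e-06), but other probe sets of Acta2 gave 0.66 and -0.34 and another of Dcn 0.20. Actg2, a smooth muscle actin with high round spermatid signals of 12495, 12082 and 10864, was the lower member (adjusted p = 6.74e-05). The summed signal of 12 macrophage markers was 10372 to 11331 on the polysome arrays, between 3432 to 3698 in spermatocytes and 17536 to 22668 in round spermatids. Of its 5 tested members 4 were higher and 1 lower; without the filter 11 of 12 were higher and 1 lower (background 32.9% higher), and in 7 of 12 the polysome arrays lay above all germ cell arrays (background 19.5%). Lyz2, the lysozyme gene of macrophages, had 1083, 1332 and 563 on the polysome arrays, 50.3, 62.1, 61.2 and 54.9 in spermatocytes and 390.4, 407 and 429.7 in round spermatids, with no overlap (2.43, adjusted p = 2.2e-06). C1qb, a complement gene, had 742, 685 and 337 in polysome RNA, above 49.1, 63.2, 47.8 and 44.5 in spermatocytes and overlapping 665, 691 and 693 in round spermatids. Csf1r, the receptor that macrophages need for growth, was higher by 1.95 (adjusted p = 0.000124), with 1.92 and 0.28 by its other probe sets, and Adgre1 was higher by 0.36 (adjusted p = 0.00724) on this scale and lower after centring (-0.34) and quantile normalization (-0.42). Endothelial and erythroid markers were dim, with summed signals on the polysome arrays of 1084 to 1458 over 10 genes and 180.0 to 651 over 4, and 0 of either list were tested.

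Listed genes for secreted and matrix proteins rose with the somatic markers. Like the other lists, a list of 22 secreted proteins of interstitium and serum was chosen with earlier results of these data known. Its counts are therefore a description, and it shares Clu and Ctsl with the Sertoli list. From it 12 were tested and 12 were higher, all beyond both germ cell groups, but polysome signal helped these pass the filter. Without it 15 of 20 were higher and 0 lower, against 32.9% and 17.9% of all genes. In 15 (75%) the polysome arrays lay above all germ cell arrays, against 19.5% of all genes. Of 34 extracellular matrix genes 13 were tested, with 10 higher and 1 lower. Without the filter 26 of 33 (78.8%) were higher and 1 lower, and 22 (66.7%) lay wholly above, against the same shares of all genes. Sparc, a matrix glycoprotein, had 9624, 17666 and 8696 on polysome arrays against 372, 455, 267 and 305 in spermatocytes and 501, 509 and 221 in round spermatids. It rose by 4.91 ± 0.29 (SE; adjusted p = 1.62e-07), with 5.17 and 0.53 by its other probe sets. Spermatogonial genes also rose: of 15 markers 13 were on the array, 6 were tested and 6 were higher, 4 after centring. Polysome signal helped these pass too; without the filter 10 of 13 were higher and 1 lower, and 6 (46.2%) had polysome signals above all germ cell signals, against 19.5% of all genes. Dmrt1, a transcription factor of spermatogonia and Sertoli cells, had 1399, 1764 and 791 on the polysome arrays, above 319, 293, 241 and 271 in spermatocytes and 595, 636 and 649 in round spermatids. Kit, the stem cell factor receptor, rose by 1.05 (adjusted p = 9.46e-05), and Id4, whose spermatocyte signals of 5653, 5336, 6326 and 5947 overlapped the polysome signals of 6727, 6593 and 5356, by 2.12 (adjusted p = 1.8e-07).

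The largest single rise was no somatic marker of any list. 1700011M02Rik, an X-linked gene that RefSeq classes as a long non-coding RNA, had 2915, 2607 and 2785 on polysome arrays. It had 27.7, 19.5, 33.9 and 20.1 in spermatocytes, 97.4, 91.5 and 119 in round spermatids and 399.8 and 437 in the Leydig cell arrays. Its polysome level was 40.1-fold higher (5.32 ± 0.13, SE; adjusted p = 1.73e-09). The spermatocyte signals of this gene were close to the constant added to each signal before log2 was taken. The size of its fold therefore depends on that constant. High polysome signal also helped this gene pass the filter. Basp1, a membrane protein gene, followed with signals of 5037, 8043 and 3287 in polysome RNA against 98.0, 79.7, 80.2 and 91.5 in spermatocytes and 146, 195 and 239.8 in round spermatids, a difference of 5.14 (adjusted p = 2.72e-08). Reep1 rose by 4.88 (adjusted p = 1.99e-09), the creatine synthesis gene Gatm by 4.86 (adjusted p = 1.8e-09), the protease inhibitor gene Serpina5 by 4.78 (adjusted p = 7.13e-08) and Cpe, a carboxypeptidase that matures hormones, by 4.72 (adjusted p = 2.21e-09).

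Most tested long non-coding RNAs were lower in polysome RNA. RefSeq classes 1354 genes on the array as long non-coding; 336 were tested, 251 (74.7%) were lower and 24 (7.14%) higher, against 29.6% lower and 37.2% higher of 8676 protein-coding genes. Their median difference was -0.98, or -1.04 relative to all genes, and 153 of the 336 (45.5%) lay below both germ cell groups, against 15.6% of all genes tested. The class was singled out after the data had been seen. With all tested genes split into 4 equal bins of mean signal, from dim to bright, 67.2%, 79.8%, 81.5% and 77.1% of long non-coding RNAs were lower, against 13.6%, 20.7%, 34.9% and 48.3% of protein-coding genes. The filter rests mostly on germ cells, which supply 7 of its 10 arrays. Over all 1354 genes without the filter, 391 (28.9%) were lower and 135 (9.97%) higher, against 17.9% lower and 32.9% higher of all genes. Centring left 303 lower and 6 higher, quantile normalization 276 and 14, and the fit with 1 polysome array 233 and 54 of 375 tested.

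The class took a smaller share of the summed signal in polysome RNA. Long non-coding RNAs held 1.32% to 1.93% of the summed signal of all genes on the 3 polysome arrays, 2.39% to 2.49% on spermatocyte arrays and 2.74% to 2.89% on round spermatid arrays. The Leydig cell arrays, total RNA with germ cell RNA in it, had 2.57% to 2.58%, and the knockout polysome arrays 1.16% to 1.27%. All polysome arrays were thus below all total RNA arrays of these groups. In the knockout, 234 of 284 tested long non-coding RNAs (82.4%) were lower in polysome RNA than in knockout germ cells and 28 higher, against 38.2% lower of all genes, with a median of -1.28. The contrast differed between genotypes for 58 of 303 long non-coding RNAs, and 55 of these were less negative or more positive in the wild type (background 9%, and 2.51% the other way). That count rested on single arrays and on the weights: it was 47 with 20 the other way without wild-type polysome array 3, 96 with 5 without array 2, and 20 with 0 with array weights. The median difference between genotypes was 0.056 without array 3 and 0.21 with all arrays.

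**Figure D2:**
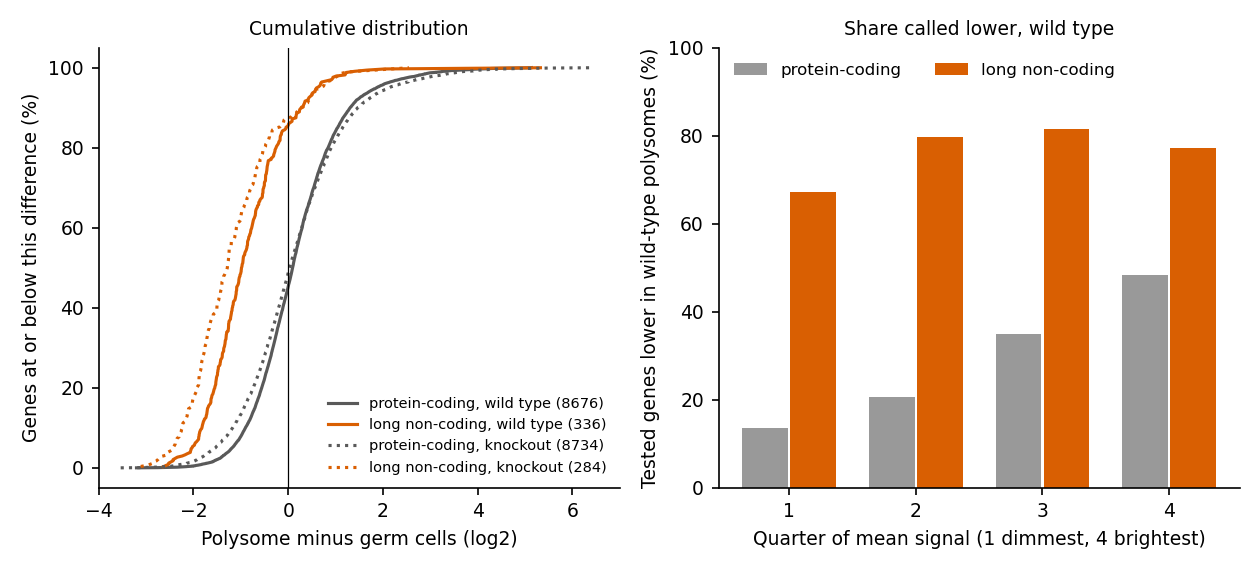
Left, the percentage of genes at or below each log2 difference between polysome and germ cell RNA, for long non-coding (orange) and protein-coding genes (grey) in wild type (solid) and knockout (dotted). Right, the percentage of tested genes lower in wild-type polysome RNA in 4 equal bins of mean signal, which for long non-coding RNAs runs from 67.2% to 81.5%.

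4933406F09Rik, a bright long non-coding RNA, had 1588, 1999.8 and 2429 on the polysome arrays. Its spermatocyte signals were 13296, 12552, 10645 and 10681 and its round spermatid signals 13247, 12364 and 10701. All 3 polysome values were below all germ cell values, and it fell 5.98-fold (-2.58 ± 0.14, SE; adjusted p = 8.79e-08); both of its other probe sets were lower too. Kcnmb4os1, an RNA antisense to a potassium channel subunit gene, had 565, 654 and 567 on polysome arrays. Germ cell signals were 3063, 3085, 3156 and 3239.8 in spermatocytes and 4486, 4363 and 4768 in round spermatids. Its signals on the Leydig cell arrays were 3502 and 3550.4. Polysome and germ cell values were far apart (-2.64 ± 0.086, SE; adjusted p = 4.4e-09). Dgkeos, named as antisense to Dgke, fell by 2.17 (adjusted p = 3.84e-07) and 4930403D09Rik fell by 2.38 (adjusted p = 9.58e-09). Of 22 tested RNAs named as opposite-strand transcripts, 19 were lower and 1 higher, and of 41 transcribed pseudogenes 25 were lower and 7 higher, against 31.6% lower and 35.9% higher of all genes. Without the filter these were 29 and 7 of 90, and 33 and 19 of 129, against 17.9% and 32.9%.

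RNAs known to stay in the nucleus did not all follow the class. Of 19 listed nuclear non-coding RNAs 7 were tested, with 1 higher and 1 lower, against 35.9% and 31.6% of all genes tested. Neat1, the scaffold of nuclear paraspeckles, had 497, 299 and 953 on the polysome arrays, overlapping 605, 681, 677 and 684 in spermatocytes and above 136, 83.4 and 164 in round spermatids (0.81 ± 0.29, SE; adjusted p = 0.027). Centring left 0.11 (adjusted p = 0.73) and quantile normalization 0.46 (adjusted p = 0.27). Without polysome array 3 its adjusted p was 0.144, without array 1 0.0659 and without round spermatid array 2 0.0556. Malat1, of nuclear speckles, had 324, 162 and 1106 on the polysome arrays, and did not pass (0.94, adjusted p = 0.0671). All 7 of its probe sets were positive, at 0.49 to 1.57, and 3 of the others passed; the mean of its probe sets was 1.03 (adjusted p = 0.014), and without polysome array 2 the difference was 1.54 (adjusted p = 0.00225). Array 3 was the highest polysome array for both. Mirg, the host of a microRNA cluster, was lower by its brightest probe set (-1.45, adjusted p = 5.53e-07), and another probe set gave 1.42. Among 14 host genes of small nucleolar RNAs on the array 6 were tested, with 3 lower and 0 higher. Gas5, whose spliced RNA is a known substrate of nonsense-mediated decay, had 343, 545 and 642 against 1586, 1589.6, 1594 and 1649.9 in spermatocytes and 1268, 1324 and 1292 in round spermatids, a fall of 1.52 (adjusted p = 7.88e-06), with -1.73, -0.18 and -0.059 by its other probe sets. Snhg8 fell by 1.48 (adjusted p = 2.9e-06) and Snhg5 fell by 0.53 (adjusted p = 0.00734), the latter with -1.12 and 0.20 by its other probe sets and an adjusted p of 0.0667 for the mean of its probe sets, of 0.0573 with near-identical arrays averaged and of 0.336 in the fit with 1 polysome array. Besides 1700011M02Rik, 2 long non-coding RNAs lay above both germ cell groups: 4930463O16Rik (2.04, adjusted p = 5.89e-05) and 4833447I15Rik (1.65, adjusted p = 4.47e-05).

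Many falls were not repeated by a second probe set of the gene. Of 955 lower genes with a second probe set of at least median signal, that probe set was also lower in 502 (52.6%) and higher in 138 (14.5%). Of 1091 higher genes with one, it was also higher in 726 (66.5%) and lower in 41 (3.76%). E2f5, a cell cycle transcription factor, had the largest fall, from 3751, 3226, 3819 and 3214 in spermatocytes and 2777, 2921 and 3109 in round spermatids to 446, 206 and 401 on the polysome arrays. That is a 9.20-fold fall (-3.20 ± 0.19, SE; adjusted p = 1.89e-07) by 1 probe set only; the other 2 gave -0.11 and 0.062. Galntl6 fell by 2.97 (adjusted p = 8.88e-07), with -1.32 by its other probe set. Fmn1, a formin gene, fell by 2.76 (adjusted p = 2.21e-06), with -0.90 by its other probe set. Ndst4 fell by 2.55 (adjusted p = 3.81e-08), with -1.38 and -0.55 by its other probe sets. Mroh2b, with 1 probe set, had 184, 163 and 359 on polysome arrays, 1826, 1806, 1479.5 and 1557 in spermatocytes and 1603, 1702 and 1914 in round spermatids, and fell by 2.85 (adjusted p = 4.95e-07). Ccdc175 fell by 2.80 (adjusted p = 0.000359), with polysome signals spread from 127 to 1256, Atoh8 fell by 2.61 (adjusted p = 6.87e-08), the X-linked 4930402K13Rik fell by 2.65 (adjusted p = 1.74e-08) and Depp1 fell by 2.60 (adjusted p = 0.000269), with -0.46 by its other probe set.

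The late spermatid messenger RNAs stood near the equally weighted average of the germ cell groups in wild-type polysome RNA. Of 19 elongating spermatid markers, all tested, 5 (26.3%) were higher and 3 (15.8%) lower, against 35.9% and 31.6% of all genes. Their median difference was 0.15 (0.086 relative to all genes). That value rests on the equal weights, because the germ cell groups were far apart: the median round spermatid minus spermatocyte difference was 2.05. Beyond both groups lay 0 above and 1 below, against 16.6% and 15.6% of all genes. Centring turned the counts to 0 higher and 10 lower, quantile normalization to 12 and 2, and array weights to 2 and 2. Of all genes, centring called 14.1% higher and 63.9% lower, quantile normalization 29.6% and 38%, and array weights 26.5% and 22.5%. Prm2, which encodes a protamine, had 35305, 85878 and 39747 on the polysome arrays. Its signals were 22269.7, 19661, 19474 and 18084 in spermatocytes and 42590.0, 39157 and 33817 in round spermatids. Polysome values were above all spermatocyte values and overlapped those of round spermatids, for a difference of 0.84 ± 0.23 (SE; adjusted p = 0.00746), or 0.14 after centring (adjusted p = 0.599). Prm3 gave 11703, 18916 and 14996 on polysome arrays, between 3618, 3498, 3937 and 3696 in spermatocytes and 23829, 21538 and 19566 in round spermatids (0.74, adjusted p = 0.000611); centring left 0.042 (adjusted p = 0.809) and round spermatids weighted 3 to 1 left 0.10 (adjusted p = 0.53). The transition protein gene Tnp2 was higher by 0.56 (adjusted p = 0.0185) but had a difference of -0.14 after centring and of 0.31 without polysome array 2 (adjusted p = 0.0796), while Prm1 (0.22, adjusted p = 0.448), Tnp1 (0.53, adjusted p = 0.0791) and the mitochondrial capsule gene Smcp (0.30, adjusted p = 0.125) did not pass. Without polysome array 1, Tnp1 (0.81, adjusted p = 0.0199) and Smcp (0.49, adjusted p = 0.0233) passed. Polysome array 2 was the brightest for Prm1, Prm2, Prm3, Tnp1, Tnp2 and Smcp.

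Akap4, which encodes a sheath protein of the sperm tail, behaved otherwise. It had 8842, 9004 and 8531 on the polysome arrays, overlapping 9229, 8696, 8411 and 8169 in spermatocytes and below 40560.1, 36195 and 27069 in round spermatids, and was lower by 0.96 in the average (-0.96 ± 0.12, SE; adjusted p = 3.53e-05). Meig1, needed for spermatid shaping, fell below both groups, with 11974, 18134 and 15621 against 27260.1, 24666, 19805 and 18608 and 40046, 36455 and 26649.7 (adjusted p = 0.00115, and 0.0828 with array weights). Of 12 messenger RNAs listed as stored in spermatids, some of them elongating markers too, 4 were higher and 2 lower, or 0 and 4 after centring. Pgk2, the germ cell phosphoglycerate kinase, had 6775, 6481 and 5507 on polysome arrays, 9692, 9190.2, 8246 and 8062 in spermatocytes and 29698, 27017 and 20941 in round spermatids. All polysome values lay below all germ cell values (-1.26 ± 0.13, SE; adjusted p = 6.59e-06). Among 11 round spermatid markers 5 were higher and 3 lower, or 1 and 6 after centring; the kinase genes Tssk1 (-0.97, adjusted p = 7.11e-05) and Tssk2 (-0.74, adjusted p = 5.11e-05) were lower, the latter not with spermatocytes weighted 3 to 1 (adjusted p = 0.2). Of 15 spermatocyte markers 3 (20%) were higher and 6 (40%) lower. Over all genes tested, 35.9% were higher and 31.6% lower.

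**Figure D3:**
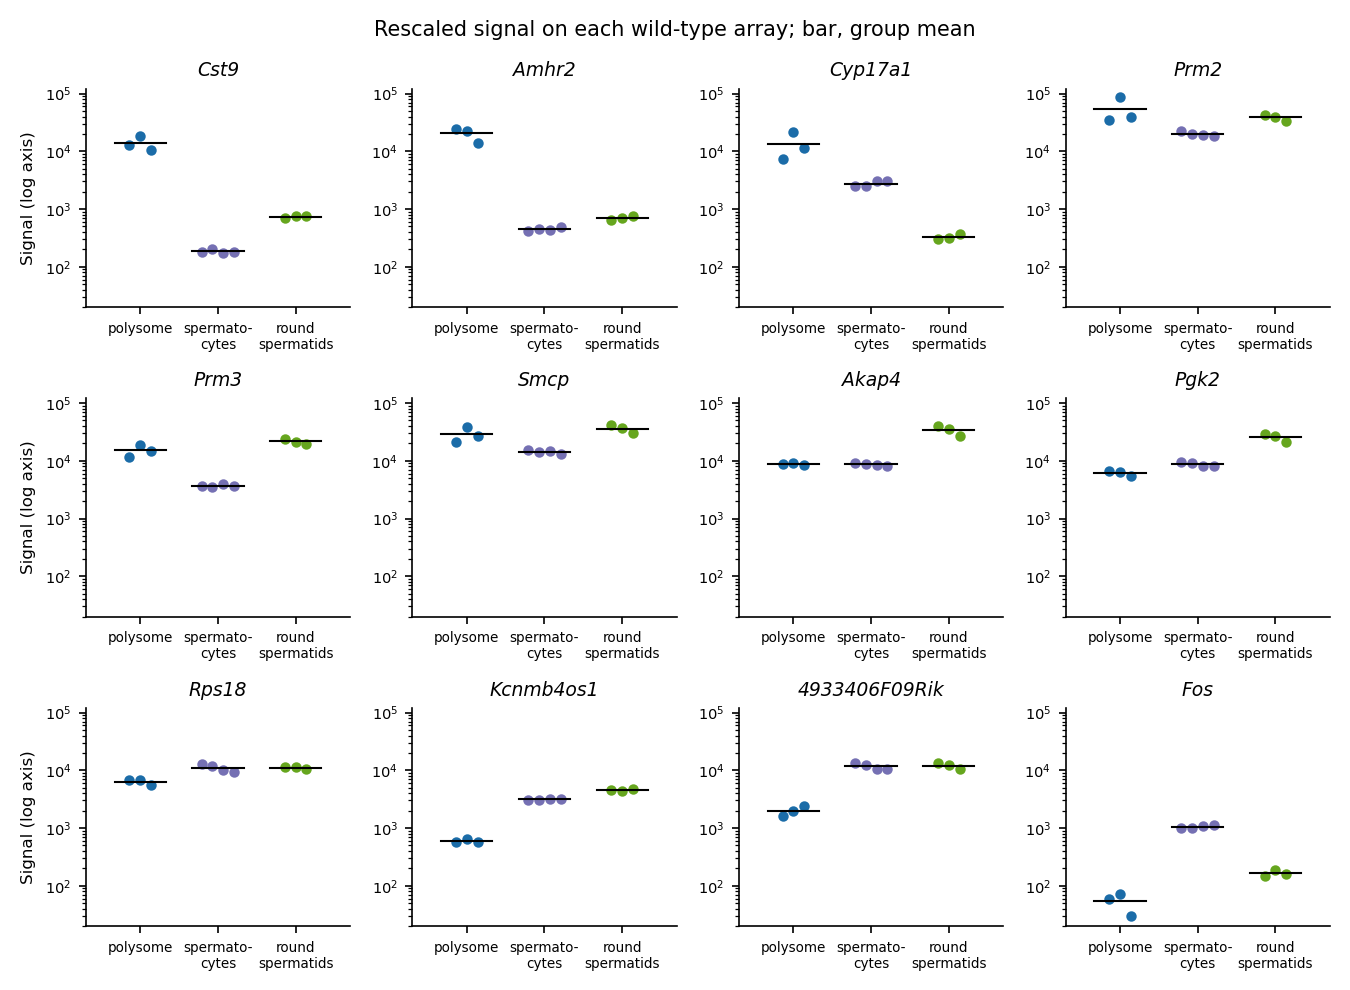
Rescaled signal (log axis) of 12 genes on each wild-type array, with points for the 3 polysome, 4 spermatocyte and 3 round spermatid arrays and a bar for each group mean. Cst9 and Amhr2 lie far above both germ cell groups on the polysome arrays, and Cyp17a1 lies above both with spermatocytes in the middle. Prm2, Prm3 and Smcp lie near or between the germ cell groups, and Kcnmb4os1, 4933406F09Rik, Fos, Pgk2 and Rps18 below both.

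The same markers were low in knockout polysome RNA. Spermatids of GRTH null mice are known to stop before elongation. Against knockout germ cells, 19 of 19 elongating spermatid markers were lower in knockout polysome RNA (background 38.2%), with a median of -1.63, and 0 were higher. The difference between the genotypes was past the threshold for 18 of 19 (background 9%), all higher in the wild type, and for 15 with array weights. Smcp had 3248, 3699 and 2197 on knockout polysome arrays against the wild-type 21461, 38366 and 26468, and its contrast differed by 2.48 ± 0.23 (SE; adjusted p = 1.08e-06). Prm3 differed by 2.28 (adjusted p = 9.61e-07), Tnp1 by 2.10 (adjusted p = 0.000249) and Prm2 by 2.01 (adjusted p = 0.000201). Of the 12 stored messenger RNAs 11 differed in this direction and 8 with array weights. That list shares members with the elongating markers, among them Akap4, Prm2 and Prm3, so it recounts some of the same genes. Of 30 flagellum genes, Akap4 among them, 9 did, and 2 with array weights. Summed Sertoli signal was 134772 to 204776 on the knockout polysome arrays, against 88519 to 154770 in the wild type. The number of late spermatids and the ribosome loading of their RNA cannot be told apart here.

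**Figure D4:**
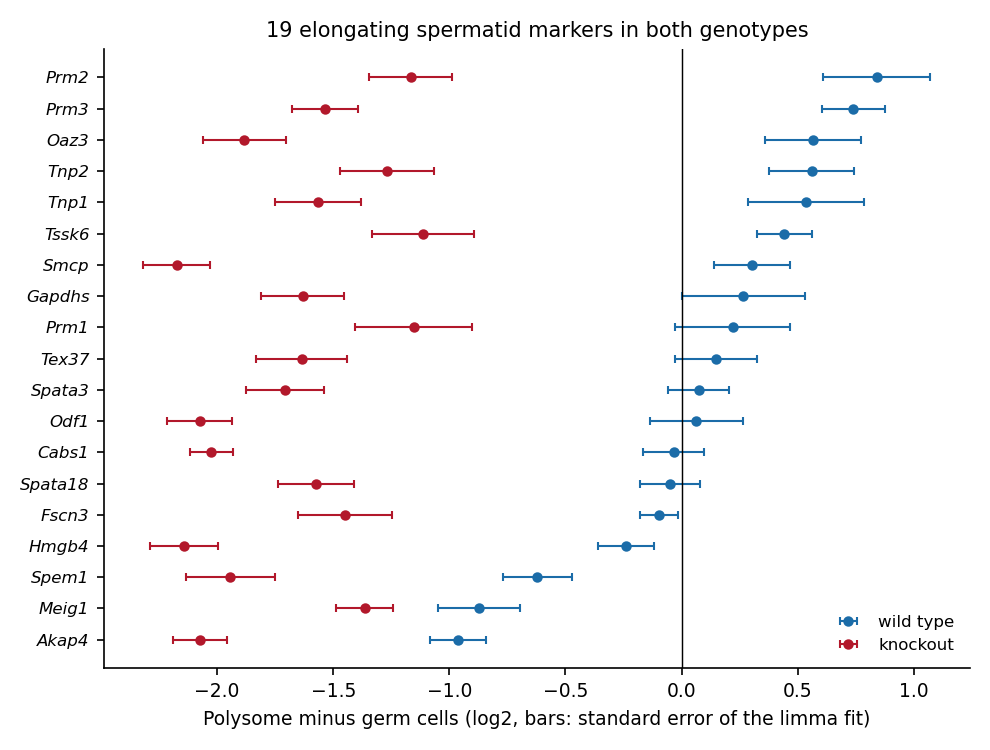
Log2 difference between polysome and germ cell RNA for 19 elongating spermatid markers, in wild type (blue) and knockout (red), with bars of 1 standard error of the limma fit. All 19 knockout values lie below 0, and the wild-type values run from -0.96 (Akap4) to 0.84 (Prm2).

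Ddx25 itself had no direction that held across scalings in the wild type. It had 14834, 21149 and 14624 on the polysome arrays, 16792, 15363, 14474 and 12998 in spermatocytes and 18439, 16166 and 15473 in round spermatids. The groups overlapped (0.08 ± 0.14, SE; adjusted p = 0.614), but centring gave -0.62 (adjusted p = 0.00236) and quantile normalization 0.29 (adjusted p = 0.00585). Knockout polysome arrays had 1063, 598 and 805. Knockout germ cells kept more signal, with 3000, 2990, 3278 and 3048 in spermatocytes and 4596, 4241 and 3865 in round spermatids. Over all genes, the knockout contrast called 3474 higher and 3477 lower, and the contrast itself differed between genotypes for 1047 genes, 819 of them higher in the wild type and 228 lower. That count was 274 with array weights and 2191 without wild-type polysome array 2.

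Of 30 tested flagellum genes 6 (20%) were higher and 14 (46.7%) lower, against 35.9% and 31.6% of all genes, with a median of -0.32 relative to all genes, and of 27 acrosome and egg-binding genes 5 (18.5%) were higher and 14 (51.9%) lower (median -0.31). Quantile normalization evened both lists, to 10 and 10 for the flagellum and 11 and 12 for the acrosome. Odf4, an outer dense fibre gene, had 3999.9, 5182 and 4067 on polysome arrays against 8656, 8387, 8601 and 8069.8 in spermatocytes and 12263, 11509.6 and 10845 in round spermatids, below both (-1.17 ± 0.10, SE; adjusted p = 2.55e-06). Spata16, needed to form the acrosome, fell from 5153, 4941, 5631 and 5250.0 in spermatocytes and 3411, 3405 and 3880.3 in round spermatids to 2053, 2772 and 2014 (adjusted p = 3.24e-05). Zpbp2, a zona pellucida binding protein gene, fell by 0.78 (adjusted p = 5.33e-05), and its other probe set gave 0.15. Spem1, a spermatid maturation gene, was lower by 0.62 (adjusted p = 0.00313), above spermatocytes (0.84) and below round spermatids (-2.08), and with spermatocytes weighted 3 to 1 its difference was 0.11.

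Ribosomal protein genes are read here beside their start sequences. In many of them the messenger RNA begins with a run of pyrimidines (C or T), through which growth signals hold the RNA on or off ribosomes. The sequences below are RefSeq windows on build GRCm38.p6, from 10 bases before to 20 bases from the annotated start, with the pyrimidine run from the start in capitals; they were chosen after their values were seen, because all 4 genes carry the run while their differences by the brightest probe set run from negative to positive. The calls of Rps18 and Rpl27a depended on the probe set, as given below. Fau is at chr19:6057937-6057966 on the plus strand, Rps18 at chr17:33955646-33955675 on the minus strand, Rps10 at chr17:27635225-27635254 on the minus strand and Rpl27a at chr7:109519185-109519214 on the plus strand.
Fau: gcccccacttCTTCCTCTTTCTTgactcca
Rps18: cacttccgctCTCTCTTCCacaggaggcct
Rps10: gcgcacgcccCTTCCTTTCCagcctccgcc
Rpl27a: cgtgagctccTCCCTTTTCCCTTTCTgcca
The runs are 13, 9, 10 and 16 bases long.

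Of 83 ribosomal protein genes 46 were on the array by name and 41 were tested. Of these 15 (36.6%) were lower and 6 (14.6%) higher, against 31.6% and 35.9% of all genes, with a median of -0.26 relative to all genes. Quantile normalization turned the split to 11 lower and 14 higher, and array weights left 6 and 4. These genes have many near-identical copies, so each value is uncertain. Rps18 had 6694, 6782 and 5503 on polysome arrays, 12784, 11963, 10073 and 9482 in spermatocytes and 11433, 11307 and 10531 in round spermatids, all polysome values below all others (-0.81 ± 0.12, SE; adjusted p = 0.000113). Its other 5 probe sets gave -0.30, -0.30, -0.21, 0.092 and 0.36, none passing, and the mean of its probe sets was -0.19 (adjusted p = 0.0756). Fau, whose product is a ribosomal protein fused to a ubiquitin-like one, fell by 1.01 (adjusted p = 3.71e-05), Rps15 fell by 1.07 (adjusted p = 6.39e-06) and Rpl37 fell by 1.83 (adjusted p = 8.29e-07). Rps10 had 10647, 17402 and 10744, overlapping both germ cell groups (-0.066, adjusted p = 0.702), and passed after centring (-0.76, adjusted p = 0.00095). Rpl27a was higher by 1.20 (adjusted p = 0.00125), with 0.50 after centring (adjusted p = 0.0853) and 0.22 by its other probe set (adjusted p = 0.466). The X-linked Rps4x was higher by 2.09 (adjusted p = 6.98e-06), though its other probe set gave -0.17.

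The run was then set against the differences. A run of at least 6 pyrimidines from the annotated start was searched on the transcribed strand only, and 2.86% of 22862 promoters with a single start hold one. Of tested genes with a matched start, 164 had the run and 5513 did not. With the run, 62 were higher and 51 lower (median -0.024); without it, 2074 were higher and 1604 lower (median 0.11). Of 30 ribosomal protein genes with a single start, 8 had the run, with 1 higher and 2 lower, and 22 did not, with 3 higher and 9 lower. An annotated start can be off by a few bases, so a missing run says only that these letters were not at this position.

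The rest of the translation machinery was mixed. Of 59 translation factors 15 (25.4%) were higher and 19 (32.2%) lower, against 35.9% and 31.6% of all genes. Of 19 aminoacyl-tRNA synthetases 3 (15.8%) were higher and 5 (26.3%) lower. After centring 45 of the factors and 18 of the synthetases were lower, against 63.9% of all genes. Eif4e3, a cap-binding protein gene, had 631, 378 and 698 on the polysome arrays against 79.5, 60.1, 58.3 and 51.6 in spermatocytes and 283, 295 and 382 in round spermatids; polysome array 2 fell within the round spermatid range, and the rise was 1.82 (adjusted p = 8.02e-06). Eef1e1, a scaffold of the synthetase complex, rose by 1.69 (adjusted p = 1.42e-07) and lay above both groups. Eif3e, an initiation factor subunit, fell by 0.87 (adjusted p = 1.4e-05), with -1.10, -0.69 and 0.47 by its other probe sets. Eif4h rose by 1.20 (adjusted p = 1.44e-05) through round spermatids, where it had 1142, 1206 and 1127 against 7723, 7412, 7236 and 6978 in spermatocytes and 8203, 5089 and 7378 in polysome RNA; its other 5 probe sets ran from -0.10 to 1.26.

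Among RNA-binding regulators of germ cell translation, 20 (51.3%) were higher and 8 (20.5%) lower of 39 tested, against 35.9% and 31.6% of all genes (median 0.33 relative to all genes). Quantile normalization gave 18 and 6, against 29.6% and 38% of all genes. Centring gave 8 and 18, against 14.1% and 63.9% of all genes. Pum2, a Pumilio repressor, had 1682, 2506 and 1972 on polysome arrays, 635, 668, 549 and 572 in spermatocytes and 923, 1006 and 835 in round spermatids. It was above both (1.42 ± 0.13, SE; adjusted p = 3.22e-06). Tsn and Tsnax, which encode the partners translin and TRAX, rose by 0.98 (adjusted p = 2.01e-06) and 1.17 (adjusted p = 4.19e-06). Ybx1, a Y-box protein gene, was lower by its brightest probe set, with 8161, 8809 and 6612 against 19122, 17452, 17093 and 16143 and 25054, 22409.9 and 21731 (adjusted p = 1.44e-06); its other probe sets gave 1.17 and 0.15, so its direction is uncertain.

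Meiotic and piRNA genes each held rises and falls. Of 33 meiosis and recombination genes 9 (27.3%) were higher and 13 (39.4%) lower, against 35.9% and 31.6% of all genes. Of 21 piRNA and chromatoid body genes 11 (52.4%) were higher and 5 (23.8%) lower, or 2 and 13 after centring. Of all genes, centring called 14.1% higher and 63.9% lower. Piwil1, a piRNA-binding protein gene, had 5028, 5149 and 3426 in polysome RNA, between 7422, 7078, 7001 and 6772 in spermatocytes and 495, 549 and 526 in round spermatids. The averaged difference was 1.20 (adjusted p = 1.01e-05, and 0.0901 with spermatocytes weighted 3 to 1), yet it was lower than spermatocytes (-0.66, adjusted p = 0.0016). Mov10l1, a helicase of piRNA processing, lay just above spermatocytes, with 2148, 2308 and 1725 against 1537, 1590.0, 1518 and 1538 and with 455, 501 and 564 in round spermatids (1.19, adjusted p = 3.48e-06). Tex12, of the synaptonemal complex, rose by 1.87 (adjusted p = 3.84e-07) and the recombinase gene Dmc1 by 0.95 (adjusted p = 3.12e-06), both above both groups. Ccnb1ip1, a crossover gene, rose by 1.70 (adjusted p = 1.13e-05) and did not pass against spermatocytes (0.20, adjusted p = 0.412). Tex15 fell by 1.94 (adjusted p = 7.24e-05), and Tdrd3, a tudor protein gene, fell by 1.56 (adjusted p = 5.03e-06), with -0.29 and 0.44 by its other probe sets.

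Of 72 tested nuclear genes for the respiratory chain, 38 (52.8%) were higher and 9 (12.5%) lower, against 35.9% and 31.6% of all genes (median 0.18 relative to all genes). Quantile normalization gave 45 and 4, against 29.6% and 38% of all genes, and centring 10 and 41, against 14.1% and 63.9%. Cycs, the cytochrome c gene of somatic cells, had 7627, 11259 and 7108 on polysome arrays, 784, 745, 728 and 717 in spermatocytes and 1873, 1757 and 1579 in round spermatids. It rose 7.38-fold, far above both (2.88 ± 0.14, SE; adjusted p = 3.59e-08), with 3.56, 2.77 and 0.48 by its other probe sets. The complex I subunit genes Ndufb11 and Ndufa1, both on the X chromosome, rose by 2.72 (adjusted p = 3.88e-08) and 2.37 (adjusted p = 6.09e-08), and Ndufa4 by 1.92 (adjusted p = 1.23e-07). The Sertoli and Leydig signals given above moved the same way, and their part in these rises was not tested.

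Proteasome genes gave 18 higher (47.4%) and 4 lower (10.5%) of 38, against 35.9% and 31.6% of all genes. Centring gave 3 and 26, against 14.1% and 63.9% of all genes, and array weights 8 and 1, against 26.5% and 22.5%. Psma7, a core subunit gene, had 2142, 2275 and 1268 on the polysome arrays, 567, 633, 504 and 574 in spermatocytes and 352, 404 and 441 in round spermatids, with no overlap (1.91, adjusted p = 2.8e-06). Psma8, its germ cell counterpart, did not pass against spermatocytes (-0.15, adjusted p = 0.257) and rose against round spermatids (2.39, adjusted p = 3.27e-08). Psmc2, an ATPase of the cap, fell by 0.93 (adjusted p = 5.03e-05), with -0.88 and 0.54 by its other probe sets. Of 38 chaperone genes 5 (13.2%) were higher and 14 (36.8%) lower, and 12 and 8 after quantile normalization. Hspe1, a mitochondrial chaperonin, rose by 2.14 (adjusted p = 7.22e-08) and Calr3, the testis calreticulin, by 1.57 (adjusted p = 2.88e-05), without passing against round spermatids (0.15, adjusted p = 0.563). Hspb9, a small heat shock protein of the testis, fell from 18610.4, 16959, 16461 and 15459.7 and 29266, 26781 and 23762 to 9075, 10037 and 6739.9 (-1.31, adjusted p = 6.59e-06).

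Of 24 glycolysis genes 6 (25%) were higher and 11 (45.8%) lower, against 35.9% and 31.6% of all genes. Aldoart1, an aldolase of the sperm lineage, had 1508, 1029 and 1335 on polysome arrays, 1795, 1942, 1847 and 1724 in spermatocytes and 10833, 10506 and 7886 in round spermatids, below both (-1.71, adjusted p = 1.35e-06). Aldoa fell by 1.11 (adjusted p = 8.99e-06) and did not pass against spermatocytes (-0.20, adjusted p = 0.187). Slc16a1, a lactate transporter, rose by 2.76 (adjusted p = 2.02e-08), with 0.27 by its other probe set. Of 16 cholesterol synthesis genes 7 (43.75%) were higher and 3 (18.75%) lower, or 4 and 8 after centring (all genes, 14.1% and 63.9%). Ebp, a sterol isomerase on the X chromosome, rose from 126, 129.8, 119 and 113 in spermatocytes and 111, 106 and 123 in round spermatids to 1637, 2099 and 1027 (adjusted p = 5.21e-08), and Msmo1 by 2.98 (adjusted p = 3.49e-08).

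Immediate early genes, which cells switch on within minutes of handling or stimulation, gave 1 higher and 5 lower of 10 tested, against 35.9% and 31.6% of all genes. The filter rests mostly on germ cell arrays; without it 9 (33.3%) were higher and 8 (29.6%) lower of 27, against 32.9% and 17.9%, with a median of 0.14. Fos, a transcription factor subunit, had 59.8, 72.8 and 29.5 on the polysome arrays. It had 999.8, 1008, 1068 and 1143 in spermatocytes, 145, 190.3 and 159.7 in round spermatids and 1571 and 1557 in the Leydig cell arrays. Polysome values lay below all values of these 3 groups (-2.70 ± 0.18, SE; adjusted p = 3.6e-07). Btg1 fell by 1.04 (adjusted p = 0.000151), with -0.93 and 0.36 by its other probe sets. Ier5 fell by 0.88 (adjusted p = 3.84e-05), with -0.15 and 0.31 by its other probe sets. Jund was higher by 0.78 (adjusted p = 0.000853), or 0.083 after centring, with 0.51 by its other probe set. Purified cells were elutriated and polysomes were not, and the part of handling in these falls was not tested.

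The X chromosome is silenced in meiosis and partly active again in round spermatids. Of 173 tested X-linked genes, 88 (50.9%) were higher and 38 (22%) lower, against 35.9% and 31.6% of all genes, with a median of 0.38 relative to all genes. Beyond both germ cell groups lay 56 (32.4%) above and 6 (3.47%) below, against 16.6% and 15.6% of all genes. Centring gave 58 higher and 82 lower, against 14.1% and 63.9% of all genes. Quantile normalization gave 71 and 58, against 29.6% and 38%. The weights of the germ cell groups mattered. With round spermatids weighted 3 to 1 the median was -0.058 relative to all genes, and with spermatocytes weighted 3 to 1 it was 0.87. Over all 617 X-linked genes on the array, 216 (35%) had polysome signals above all germ cell signals, against 19.5% of all genes, and 7 (1.13%) had them below, against 8.4%. The somatic markers above rose in the same arrays, and their part in the X-linked rise was not tested. On the Y chromosome 4 genes were tested, with 0 higher and 1 lower.

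**Figure D5:**
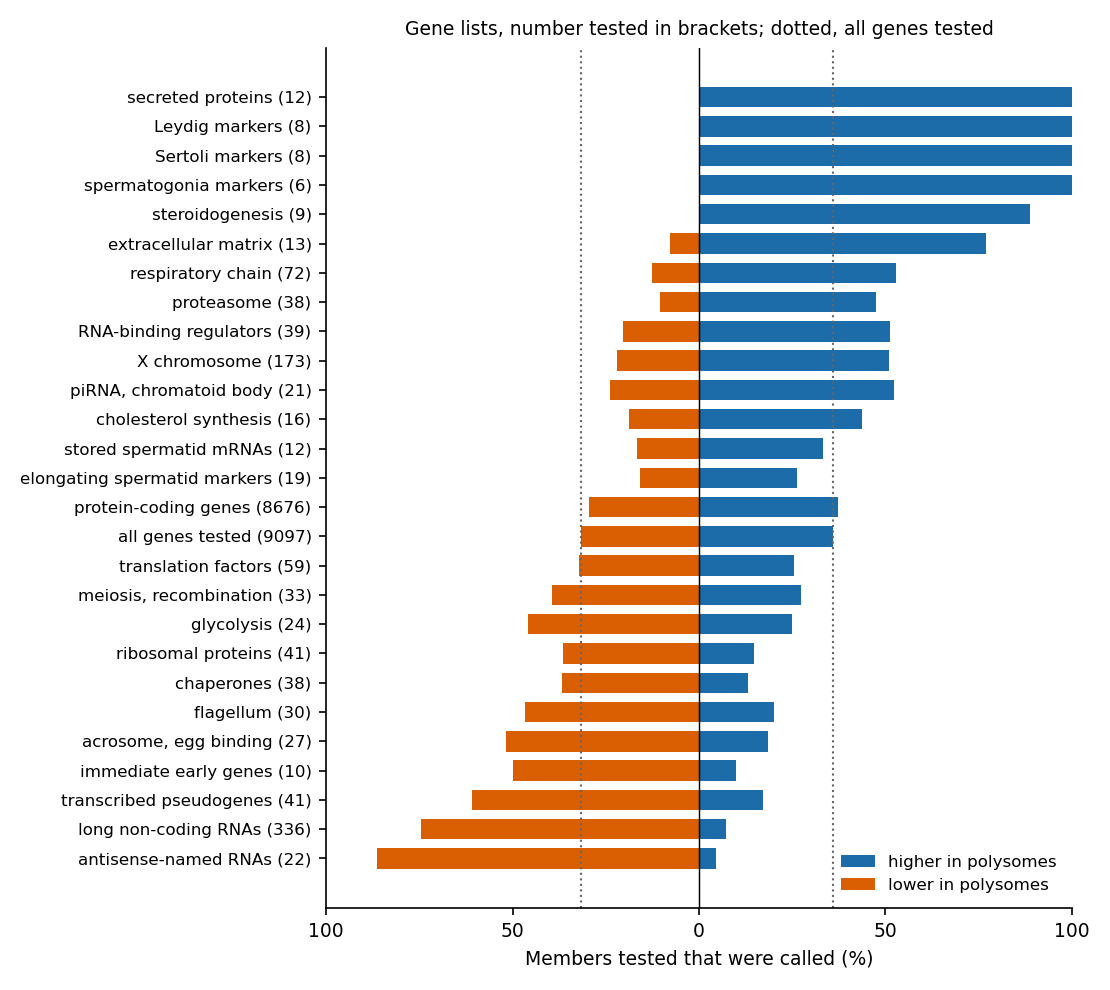
For each gene list, the percentage of tested members that were higher (blue, right) or lower (orange, left) in wild-type polysome RNA, with the number tested in brackets; dotted lines mark 35.9% higher and 31.6% lower over all 9097 genes. Sertoli, Leydig, secreted and spermatogonial lists reach 100% higher among members that passed the filter, which high polysome signal helps (8 of 17 Sertoli, 12 of 20 secreted and 6 of 13 spermatogonial genes passed), and long non-coding RNAs reach 74.7% lower.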

How the data were processed

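The values are the deposited intensities of a 1-colour mouse oligonucleotide array with 45101 probe sets, which the authors made with GCOS, per the submitters' processing notes; the sources used here give no version of it. The authors had scaled 24 of 28 arrays to a common level, and 4 were deposited unscaled. Each array was rescaled to a mean of 500 after trimming 2% at each end, and the deposited signal then taken as log2(signal + 16). Of all probe sets, 34945 had 1 gene symbol, 932 several and 9160 none; each gene was read from its brightest probe set. Groups were compared with limma 3.58.1 (R 4.3.3; lmFit, eBayes) and Benjamini-Hochberg adjustment at 0.05, each genotype in its own fit and the difference in 1 fit over 20 arrays. The main fit was run on simulated data with planted differences, to see that these were recovered. That run set no limit on calls among unchanged genes, so it does not test the p-values. Members and lists were chosen with earlier results of these data known. Genes named are Ddx25, the largest rises and falls beyond both germ cell groups, and list members of smallest p; a few were added after their values were seen. Replicate numbers did not pair the samples (correlations of deviations -0.12 to -0.018). Their number limits the precision. Protein length was not analysed here. Alternatives were other scalings, offsets, filters, probe set rules, weights and omitted arrays.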

Additional observations from a re-analysis of the deposited data

Results flagged for a closer look

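Of 108 genes checked, 25 had a contrast that differed between wild type and knockout by limma's test of the difference, 16 higher in the wild type and 9 lower; values are wild type minus knockout on the log2 scale. For late spermatid genes the differences were 2.48 for Smcp, 2.28 for Prm3, 2.10 for Tnp1, 2.01 for Prm2, 1.83 for Tnp2, 1.37 for Prm1 and 1.11 for Akap4. Further genes of spermatids were Hspb9 at 1.44, Spem1 at 1.32, Tssk2 at 1.30, Calr3 at 0.98, Pgk2 at 0.96 and Aldoart1 at 0.68. Ddx25, the gene deleted in the knockout, differed by 2.23. Its remaining knockout signal was 598 to 1063 on polysome arrays and 2990 to 4596 on germ cell arrays. Actg2 differed by 0.74 and the non-coding 4930403D09Rik by 0.73. Actg2 is listed as a smooth muscle gene, but its wild-type signals were highest in round spermatids. It had 12495, 12082 and 10864 there, and 5262, 5254 and 5349 in knockout round spermatids.

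Lower in the wild type were the Sertoli genes Cst12 at -1.25, Cst9 at -1.23 and Defb19 at -0.82, and the smooth muscle gene Myl9 at -1.05. The same direction was found for Fmn1 at -1.27, Gas5 at -0.71, Cycs at -0.68, Ndufa4 at -0.55 and Ier5 at -0.46. Germ cell levels enter these values as well as polysome levels. Cst9 had 688, 755 and 759 in wild-type round spermatids and 297, 295 and 309 in knockout ones. On polysome arrays it had 12975, 18211 and 10615 in the wild type and 15270, 19774 and 17812.5 in the knockout. Cst12 had 592, 606 and 655 in wild-type round spermatids and 248, 317 and 265 in knockout ones.

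Among the 4 wild-type spermatocyte arrays, 1 array stood apart for each of 5 genes, and chance sets 1 array apart in about 1 in 20 groups. Array 1 had a signal of 21.1 for Myl9, 605 for Neat1 and 127 for Dmc1. Array 2 had 851 for Mirg. Array 4 had 1649.9 for Gas5.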

How the results depend on the processing

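Genes called against both germ cell types together numbered 5584 to 6537 when 1 array was left out, 2941 to 3476 of them higher and 2643 to 3122 lower. The same omissions gave 5555 to 6456 against spermatocytes, 6486 to 7322 against round spermatids, 1308 to 1672 above and 1258 to 1739 below both, 6706 to 7081 in the knockout, and 878 to 2191 for the genotype difference, whose highest count came without wild-type polysome array 2. With the replicate block, 5765 genes were called, 3088 higher and 2677 lower; the replicate number is only a shared number here. Centring each array gave 1287 higher and 5812 lower, with 608 above and 3655 below both. Averaging near-identical arrays gave 905 below both. Without the filter 9250 were called (5990 higher), 9215 against spermatocytes, 3359 above both, and 10467 in the knockout. In the brightest genes alone, above the upper quartile of signal, 3106 were called (1131 higher), 3119 against spermatocytes, 3468 against round spermatids and 359 above both; there fewer genes were tested. Array weights gave 274 genes for the genotype difference. The knockout count without the filter and these weights were chosen after seeing the data.

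With the values as deposited, where arrays 1 and 2 are unscaled, 146 genes were higher and 5368 lower, 4162 were called against round spermatids, and 60 lay above and 2559 below both. The sign then turned for Ddx25 (-1.51), C1qb (-0.083), Adgre1 (-1.0), Dmrt1 (-0.0059), Kit (-0.43), Sohlh2 (-0.28), Neat1 (-0.58), Prm1 (-1.37), Prm2 (-0.75), Prm3 (-0.85), Tnp2 (-1.03), Smcp (-1.28), Rpl27a (-0.33), Eif4h (-0.37), Pum2 (-0.13), Tsn (-0.57), Tsnax (-0.39), Psma8 (-0.46), Calr3 (-0.010), Dmc1 (-0.47), Piwil1 (-0.38), Mov10l1 (-0.36) and Jund (-0.79). Centring turned Ddx25 (-0.62), Adgre1 (-0.34) and Tnp2 (-0.14), quantile normalization turned Adgre1 (-0.42), and spermatocytes weighted 3 to 1 turned Spem1 (0.11). Beyond the deposited scaling, the cause was not tested. A signal has no count behind it, and the 3 polysome arrays limit the precision.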
